A study of Homo sapiens with 6 samples.

Results

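The genes described here encode integrins, laminins and proteins of the focal adhesion, and they were taken by symbol from a list of 35 names among the 57773 genes of the count table. The list held 12 integrin alpha subunits, 5 integrin beta subunits, 10 laminin chains, 4 other basement membrane genes and 4 focal adhesion genes. RNA sequencing was performed on SW872, an established human liposarcoma cell line, with 3 replicates in each of 2 groups. The Apatinib group was treated for 24 h with 18 μM Apatinib, a small molecule inhibitor of the vascular endothelial growth factor receptor KDR. The study names c-Kit, Ret and Src as further targets of the drug. The other group is labelled as control, and the sources used here do not state whether it received vehicle. Both groups are the same cell line grown in culture, without stroma or vessels. The comparison of the groups asks which transcripts of the cell-matrix adhesion machinery differed after treatment.

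Integrins are receptors made of 1 alpha and 1 beta subunit that span the plasma membrane and bind matrix proteins such as collagen, fibronectin and laminin. Laminins are secreted trimers of an alpha, a beta and a gamma chain, and they assemble with nidogens, perlecan, agrin and type IV collagen into basement membrane. Where integrins cluster, talin, paxillin, integrin-linked kinase and focal adhesion kinase gather at their inner face and connect them to actin, and in connective tissue tumors these contacts serve attachment, spreading and migration.

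The marker genes matched a mesenchymal tumor line with little adipocyte maturation. Of 7 mesenchymal markers, 7 had a mean level above 1 FPKM (a level scaled to transcript length and library size), led by VIM at 1035 FPKM. Of 8 adipocyte markers, only PPARG (21.7 FPKM) and LPL (2.66 FPKM) were above 1 FPKM, and ADIPOQ and FABP4 had 0 counts in all 6 replicates. Of 5 leukocyte markers, PTPRC and LYZ also had 0 counts in all 6 replicates, whereas the myeloid marker CD14 was at 1.53 FPKM with 40 to 107 counts. Of 7 epithelial markers, KRT18 (157 FPKM) and KRT8 (30.3 FPKM) were present, whereas EPCAM and CDH1 had at most 7 and 2 counts in any replicate. The summed level of the epithelial markers was 222, 221 and 186 FPKM in Apatinib replicates 1 to 3, against 156, 155 and 186 FPKM in control replicates 1 to 3, most of it KRT18. The mesenchymal sum, most of it VIM, was 1518, 1281 and 1368 FPKM in the Apatinib replicates and 1129, 1055 and 1185 FPKM in the controls. The leukocyte sum, nearly all CD14, was 1.53, 1.48 and 0.996 FPKM in the Apatinib replicates and 1.77, 1.98 and 1.85 FPKM in the controls. The groups did not overlap in these last 2 sums, which were not tested. KDR itself had at most 11 counts in any replicate, while SRC, another target named by the study, had a mean level of 11.7 FPKM. Because RNA of whole cultures was measured, a change in the share of cells that express a gene and a change in RNA per cell cannot be told apart.

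The libraries held 18081919, 17275850 and 17352210 in Apatinib replicates 1 to 3, against 17043314, 18139437 and 22067558 counts in control replicates 1 to 3. Of all counts in a replicate, 0.892% to 1.14% fell on the adhesion genes. Control replicates 1 and 2 were far more alike than other replicates of a group, their chi-square per gene averaging 2.27, against 18.2 to 44.5 for the other pairs within a group. They differed by more than sampling noise, for which this value would be near 1, and were kept as separate replicates. The study states biological replicates, but these values alone do not show whether the 2 controls were separate cultures, and if they were not, the control group holds fewer than 3. The replicates also differed in how expression depended on the GC content of the transcript. The slope of log2 CPM (counts scaled to library size by the TMM method) per 10 percentage points of GC content was 0.25, 0.07 and 0.02 in Apatinib replicates 1 to 3, against -0.19, -0.18 and 0.04 in control replicates 1 to 3.

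The listed symbols matched 36 entries of the table, because ITGB3 stands there under 2 Ensembl identifiers, of which ENSG00000259753 had 0 counts in all replicates. ITGA8, which encodes the alpha subunit of a fibronectin and nephronectin receptor, had 0 counts in the Apatinib group and 0, 2 and 2 counts in control replicates 1 to 3. The remaining 34 genes passed the filter on low counts and were tested. By FPKM, which is comparable between genes of different length, LAMB1, ITGA3 and ITGB1 were the most abundant, with means over all replicates of 258, 164 and 153 FPKM. At the low end, LAMA1 and LAMA2 were at 0.0947 and 0.155 FPKM. The plot of FPKM by replicate shows the widest spread among the laminin chains and the narrowest among the focal adhesion genes, which ran from 34.3 FPKM for PTK2 to 82.98 FPKM for ILK.

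**Figure D1:**
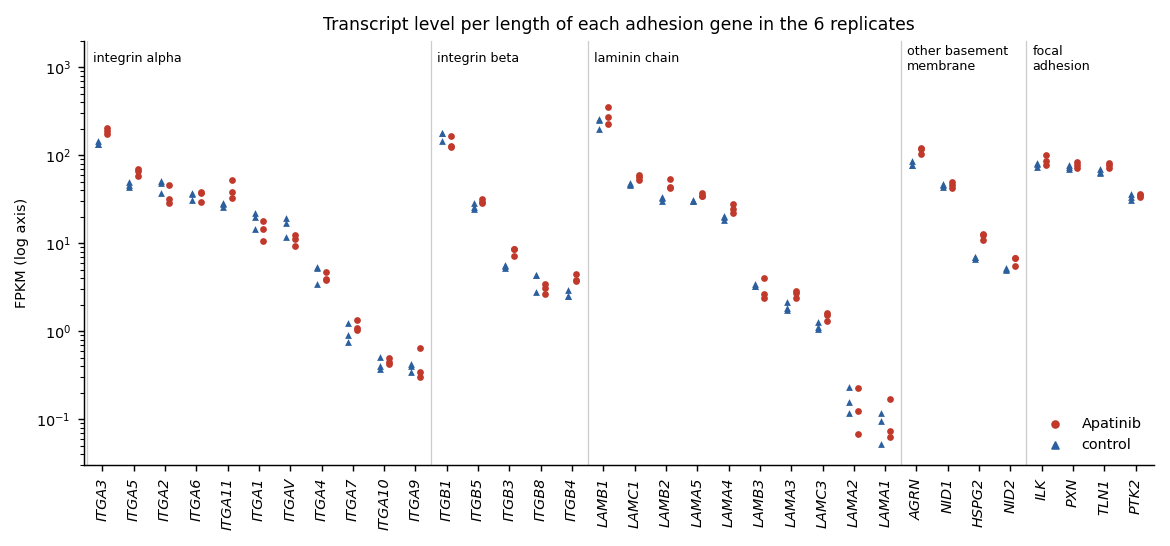
Level of each integrin, laminin and focal adhesion gene (FPKM, logarithmic vertical axis) in the 3 Apatinib replicates (circles) and the 3 control replicates (triangles), ordered by mean level within each family. LAMB1, ITGA3 and ITGB1 lead at 258, 164 and 153 FPKM on average, and LAMA1 is lowest at 0.0947 FPKM. ITGA8 and the ITGB3 entry without counts are not drawn.

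Compared with the control group, 4 adhesion genes were higher in the Apatinib group and 1 was lower. The higher genes were HSPG2, LAMB2, ITGA11 and ITGB4, and the lower gene was ITGAV. With control replicates 1 and 2 summed into 1 library, HSPG2 alone of these was called. A gene was called as DEG at an adjusted p (FDR) under 0.05 in edgeR's quasi-likelihood test, if its log2 fold change also exceeded 0.5 in size. Thus 5 of 34 tested members (14.7%) were DEGs, against 11.5% of all 16290 genes tested, and this share is near the background and is not a result about the adhesion genes. By direction, 4 members were higher where 5.97% of all genes were, and 1 was lower where 5.48% were. A further 4 members (ITGA3, ITGA5, LAMA3 and AGRN) had an FDR under 0.05 but stayed below the fold change limit, so that 9 members passed the FDR alone, against 12.9% of all genes. Of these 9, 8 were higher (6.83% of all genes) and 1 was lower (6.07%). The number of members under this FDR was 5 with the replicate number as a block, 3 with a correction for GC content that was chosen after seeing the data, and 1 with control replicates 1 and 2 summed. The share of all genes under the FDR alone in these fits is not given. With the fold change limit as well, 5, 1 and 1 members were called in them, where 13.6%, 8.60% and 1.75% of all genes were. Among the cell type markers KRT8, ESRP1, LPL, COL6A1 and VWF were called higher (edgeR, FDR = 0.0166, 0.0407, 0.0237, 0.0277 and 0.0386) and CDH5 was called lower (edgeR, FDR = 0.0242), and their part in the results was not tested.

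The log2 fold changes of the 34 members ran from -0.56 to 0.81 with a median of 0.23, beside a median of 0.00 over all genes tested. A positive fold change was found in 24 of 34 members and in 8195 of all 16290 genes. In 15 members (44.1%) the CPM of the groups did not overlap, against 33.2% of all genes, and in all 15 the Apatinib group was the higher one, where 17.5% of all genes were placed that way and 15.7% the other way. The plot of fold changes shows most laminin chains and basement membrane genes to the right of 0, and integrin subunits on both sides.

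**Figure D2:**
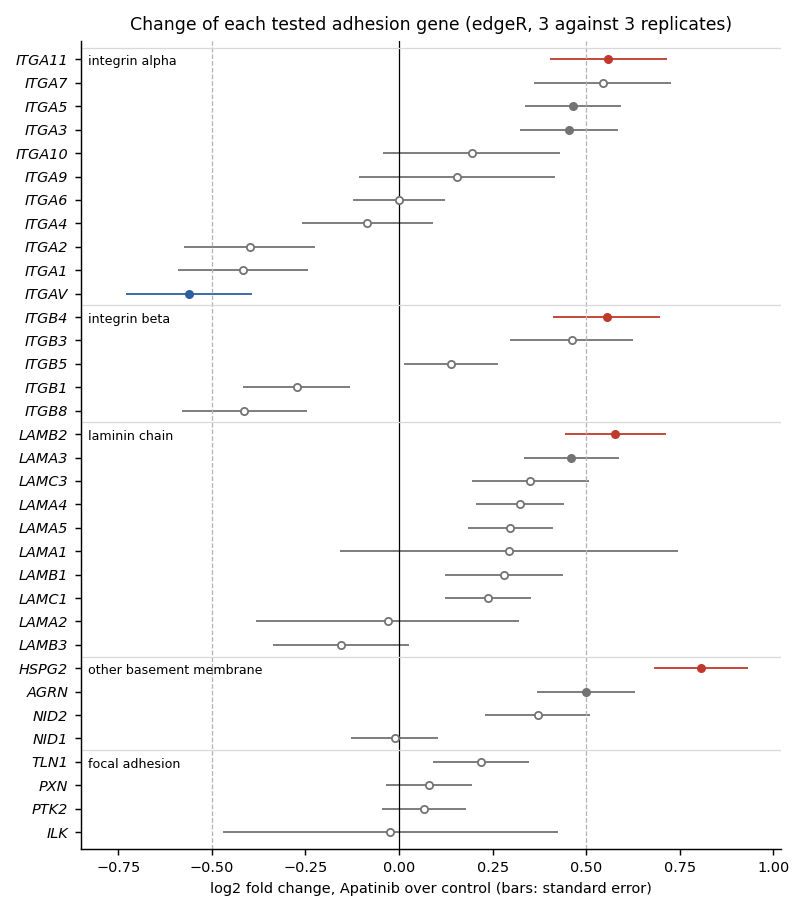
Log2 fold change (Apatinib over control, edgeR) of the 34 tested adhesion genes by family, with the standard error as bar. Red and blue mark genes called higher and lower, filled grey points mark genes with an FDR under 0.05 below the fold change limit of 0.5 (dashed lines), and open points the others. HSPG2 lies farthest right at 0.81 and ITGAV farthest left at -0.56.

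HSPG2 had the smallest FDR of the members and was called under every alternative that was run. It encodes perlecan (ENSG00000142798), the large heparan sulfate proteoglycan of basement membrane. Its CPM was 232, 213 and 181 in Apatinib replicates 1 to 3, against 116, 118 and 124 in control replicates 1 to 3. The lowest treated replicate was thus well above the highest control. HSPG2 was 1.75-fold higher (log2 fold change 0.81, SE 0.12, edgeR FDR = 0.00529). With one replicate left out at a time, the log2 fold change ran from 0.73 to 0.90 and the edgeR FDR from 0.0032 to 0.0419. Of the bases of its exons, 88.3% are shared with no other gene, and the rest overlap LDLRAD2 on the opposite strand.

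The sequence before the transcription start was examined for the members, and is shown for the called ones that have an entry. RefSeq promoter windows of build GRCh38.p14 matched 26 of the 35 symbols with 34 windows, several genes having more than 1 start. The genes without a match were ITGA3, ITGA7, ITGA9, ITGB3, ITGB4, LAMA1, LAMC3, AGRN and PTK2. The 250 bases before each start were searched on both strands for the AP-1 motif TGANTCA, the TEAD motif CATTCC and the SP1 motif GGGCGG. The windows of HSPG2 (chr1:21937311-21937560, minus strand), LAMB2 (chr3:49133051-49133300, minus strand), ITGA11 (chr15:68432164-68432413, minus strand) and the upstream start of ITGAV (chr2:186589806-186590055, plus strand) are given 5′ to 3′ in the direction of the gene, with matches to any of the motifs in capitals.
HSPG2: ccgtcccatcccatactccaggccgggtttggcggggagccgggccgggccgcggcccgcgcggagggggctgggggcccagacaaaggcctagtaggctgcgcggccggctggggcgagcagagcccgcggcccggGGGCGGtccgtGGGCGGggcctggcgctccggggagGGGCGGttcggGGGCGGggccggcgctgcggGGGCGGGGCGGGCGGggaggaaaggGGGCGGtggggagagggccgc
LAMB2: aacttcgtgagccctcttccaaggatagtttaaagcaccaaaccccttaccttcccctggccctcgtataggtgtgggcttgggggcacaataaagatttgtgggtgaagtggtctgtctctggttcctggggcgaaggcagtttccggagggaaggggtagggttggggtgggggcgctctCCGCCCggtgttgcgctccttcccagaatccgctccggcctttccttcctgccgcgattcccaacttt
ITGA11: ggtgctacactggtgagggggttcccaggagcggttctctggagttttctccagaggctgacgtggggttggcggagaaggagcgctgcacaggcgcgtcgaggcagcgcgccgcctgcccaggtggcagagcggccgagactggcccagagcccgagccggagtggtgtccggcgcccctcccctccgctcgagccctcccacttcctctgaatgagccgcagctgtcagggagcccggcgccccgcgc
ITGAV: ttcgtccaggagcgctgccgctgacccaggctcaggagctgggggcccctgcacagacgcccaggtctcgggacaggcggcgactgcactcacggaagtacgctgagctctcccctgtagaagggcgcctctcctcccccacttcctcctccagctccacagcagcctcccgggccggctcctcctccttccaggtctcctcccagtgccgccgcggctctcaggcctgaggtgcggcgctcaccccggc
HSPG2 held 8 matches to the SP1 motif in 6 runs of capitals, with a GC content of 82.8% in the window. LAMB2 held 1 match, and ITGA11 and ITGAV held none to any motif in these windows, nor did the window of the other ITGAV start. Over all members, the SP1 motif was found in 22 of 34 windows (64.7%), against 42.6% of 34788 distinct promoter windows. The TEAD motif was found in 5 member windows (14.7% against 11.9%), those of ITGA5, ITGA10, ITGB1, LAMA2 and PXN. The AP-1 motif was found in 2 (5.88% against 6.59%), those of LAMA3 and LAMB3. These matches describe letters in a window and were not related to the expression values by any test.

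Among the integrin alpha subunits, 2 of 11 tested genes were called (18.2%, against 11.5% of all genes, which on 11 genes is near the background), ITGA11 as higher and ITGAV as lower. ITGA11 encodes a collagen receptor subunit of mesenchymal cells (ENSG00000137809). Its CPM was 286, 366 and 234 in Apatinib replicates 1 to 3, against 196, 193 and 213 in control replicates 1 to 3. The groups did not overlap, although Apatinib replicate 3 was nearer to the controls than to Apatinib replicate 2. ITGA11 was 1.47-fold higher (log2 fold change 0.56, SE 0.16, edgeR FDR = 0.0394).

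ITGAV encodes the alpha subunit that pairs with several beta subunits to bind vitronectin, fibronectin and latent TGF-beta (ENSG00000138448). In Apatinib replicates 1 to 3 its CPM was 87.0, 100.25 and 115, and in control replicates 1 to 3 it was 173, 159.8 and 113. Control replicate 3 lay within the range of the Apatinib group, so the groups overlapped. ITGAV was 1.47-fold lower (log2 fold change -0.56, SE 0.17, edgeR FDR = 0.0486), just under the limit. With the correction for GC content its log2 fold change was -0.14 and it was not called.

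The most abundant alpha subunits were ITGA3, a laminin receptor subunit, and ITGA5, the fibronectin receptor subunit. ITGA3 was at 1474, 1263 and 1189 CPM in Apatinib replicates 1 to 3, against 903, 919 and 1046 CPM in control replicates 1 to 3. The CPM of ITGA5 was 426, 375 and 339 in the Apatinib group against 264, 262 and 301 in the control group, in the order of the replicates. In both genes every Apatinib replicate was above every control, and control replicate 3 was the nearest control. Their log2 fold changes of 0.45 (SE 0.13, edgeR FDR = 0.0428) and 0.46 (SE 0.13, edgeR FDR = 0.0375) did not reach the fold change limit.

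The 7 other tested alpha subunits did not pass the test. The collagen receptor subunits ITGA1 and ITGA2 had log2 fold changes of -0.42 and -0.40, with control replicate 3 as the control nearest to the Apatinib mean in both. ITGA7, a laminin receptor subunit best known from muscle, had a log2 fold change of 0.54 but a low level of 1.06 FPKM, and its edgeR FDR was 0.0703. ITGA6, another laminin receptor subunit, was at 34.9 ± 4.67 FPKM in the Apatinib group against 34.8 ± 3.61 FPKM in the control group (mean ± SD, n = 3). ITGA4, whose product binds fibronectin and VCAM1, was at 4.14 ± 0.507 and 4.69 ± 1.10 FPKM in the Apatinib and control groups. ITGA9 and ITGA10 were below 1 FPKM in every replicate, with log2 fold changes of 0.15 and 0.19.

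The composition of the alpha subunits was expressed as the share of each in their summed FPKM, which was 397 ± 28.4 in the Apatinib group against 333 ± 11.3 in the control group. ITGA3 took the largest share with 47.8 ± 3.65% in the Apatinib group against 41.5 ± 3.29% in the control group, and these ranges overlapped. The share of ITGA2 was 7.23%, 10.8% and 8.52% in Apatinib replicates 1 to 3, against 14.7%, 14.5% and 11.6% in control replicates 1 to 3. All treated replicates were below all controls here, with a mean difference of -4.76 percentage points. The shares of ITGA5 (16.2 ± 1.06% against 13.9 ± 1.10%) and ITGA11 (10.3 ± 1.79% against 8.21 ± 0.493%) did not overlap and were higher, and that of ITGA1 (3.61 ± 0.806% against 5.61 ± 1.03%) did not overlap and was lower in the Apatinib group. For each of these 4 shares the exact two-sided permutation test gave p = 0.1, the smallest value that 3 against 3 replicates allow, so none of the 8 shares tested could pass 0.05. For ITGA3 and ITGA6 (8.84 ± 1.46% against 10.4 ± 0.889%) the same exact test gave p = 0.2.

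Of the 5 beta subunits, ITGB4 alone was called, and 1 of 5 is also near the 11.5% of all genes. ITGB4 encodes the partner of ITGA6 in hemidesmosomes (ENSG00000132470). It was found at 32.3, 34.8 and 27.7 CPM in Apatinib replicates 1 to 3, against 19.7, 20.8 and 24.0 CPM in control replicates 1 to 3. The groups did not overlap, with Apatinib replicate 3 and control replicate 3 nearest to each other. The gene was 1.47-fold higher (log2 fold change 0.56, SE 0.14, edgeR FDR = 0.0303), at a level of 3.31 FPKM over all replicates.

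ITGB1, the common partner of most alpha subunits, and ITGB5, a partner of ITGAV, were the most abundant beta subunits. The CPM of ITGB1 was 629, 559.7 and 767 in Apatinib replicates 1 to 3, against 814, 843 and 707 in control replicates 1 to 3. That of ITGB5 was 199.7, 170.0 and 167 in the Apatinib group against 154, 153 and 179.9 in the control group, in the order of the replicates. The groups overlapped in both genes, and the log2 fold changes of -0.27 and 0.14 did not pass the test (edgeR FDR = 0.220 and 0.490). ITGB8, a partner of ITGAV in the activation of latent TGF-beta, stood at -0.41 on the log2 scale (SE 0.17, edgeR FDR = 0.121). ITGB3, another partner of ITGAV, stood at 0.46 (SE 0.16, edgeR FDR = 0.0850) without overlap of the groups, and only 48.4% of the exon bases of its counted entry are shared with no other gene.

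**Figure D3:**
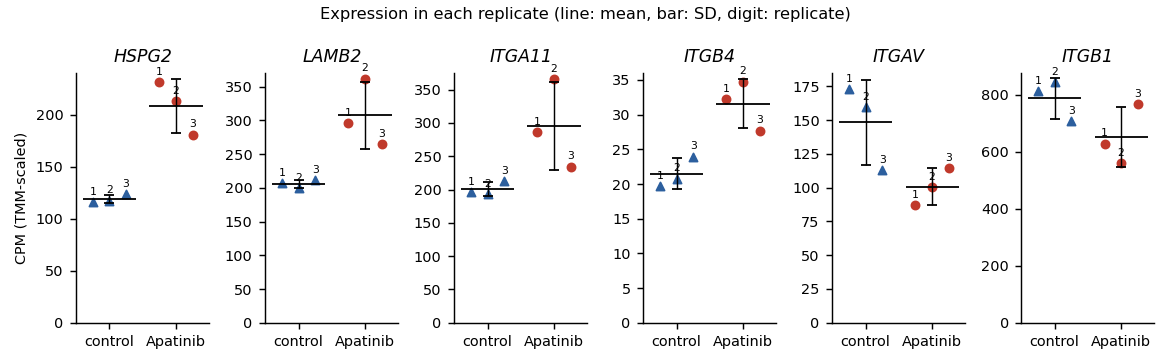
CPM (TMM-scaled) of the 5 called adhesion genes and of ITGB1 in each control replicate (triangles) and Apatinib replicate (circles), with the replicate number beside each point, the mean as line and the SD as bar. HSPG2 is at 181 to 232 CPM in the Apatinib group and 116 to 124 CPM in the control group, and for ITGAV control replicate 3 (113 CPM) falls among the Apatinib replicates.

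Among the 10 laminin chains LAMB2 alone was called, which is near the 11.5% of all genes. It encodes the beta chain of the laminins of muscle, nerve and kidney basement membrane (ENSG00000172037). LAMB2 was at 295, 362 and 265 CPM in Apatinib replicates 1 to 3, against 207, 199 and 212 CPM in control replicates 1 to 3. All treated replicates exceeded all controls, and the treated replicates varied more than the controls did. The gene was 1.49-fold higher (log2 fold change 0.58, SE 0.13, edgeR FDR = 0.0218).

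The chains with the highest levels were LAMB1 and LAMC1, the beta and gamma chains of the most widespread laminins. LAMB1 was at 1612, 2354 and 1776 CPM in Apatinib replicates 1 to 3, against 1662, 1666 and 1400.3 CPM in control replicates 1 to 3. LAMC1 had 657, 633 and 580.2 CPM in the Apatinib group against 522, 519 and 545 CPM in the control group, in the same order. The groups overlapped for LAMB1, where Apatinib replicate 2 stood above the rest, and did not overlap for LAMC1. Neither log2 fold change passed the test, at 0.28 for LAMB1 (edgeR FDR = 0.252, and 0.11 without Apatinib replicate 2) and 0.24 for LAMC1 (edgeR FDR = 0.185).

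Of the laminin alpha chains, which carry the main sites for integrins, LAMA5 and LAMA4 made up nearly the whole summed FPKM. LAMA5 took 56.3 ± 1.71% in the Apatinib group against 58.6 ± 1.62% in the control group, and LAMA4 took 39.1 ± 1.43% and 37.3 ± 1.26%. These shares overlapped between the groups (exact two-sided permutation test, p = 0.3 for each), while the summed level of the alpha chains was 62.7 ± 4.80 FPKM in the Apatinib group against 52.0 ± 0.892 FPKM in the control group. LAMA3, the alpha chain of epithelial laminin, was at 2.66 ± 0.263 and 1.91 ± 0.232 FPKM, with a log2 fold change of 0.46 (SE 0.13, edgeR FDR = 0.0383) below the fold change limit. The other chains not called ranged from -0.16 for LAMB3, the beta chain that pairs with LAMA3, to 0.35 for LAMC3, a gamma chain of low level (1.31 FPKM). LAMA1 and LAMA2 had at most 39 and 56 counts, both in Apatinib replicate 2, and their standard errors of 0.45 and 0.35 exceeded their log2 fold changes of 0.29 and -0.03. Without that replicate these were -0.33 and -0.52.

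Among the 4 other basement membrane genes, HSPG2 was the called member, and AGRN came closest to the limit. On 4 genes, 1 called is near the 11.5% of all genes. AGRN encodes agrin, a heparan sulfate proteoglycan that binds laminin. It was at 1157, 1052 and 927 CPM in Apatinib replicates 1 to 3, against 689, 715 and 817 CPM in control replicates 1 to 3, without overlap of the groups. Its log2 fold change was 0.498 (SE 0.13, edgeR FDR = 0.0325), just under the limit of 0.5. NID1 encodes the nidogen that links laminin to type IV collagen. Its CPM was 399, 397 and 348 in the Apatinib group against 377, 374 and 403 in the control group, with a log2 fold change of -0.01. The paralog NID2 stood at 0.37 (edgeR FDR = 0.1002), and 70.0% of its exon bases are shared with no other gene.

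None of the 4 focal adhesion genes was called by edgeR, 0 had an unadjusted p under 0.05, and DESeq2 and limma also called 0. On 4 genes, 0 called is near the 11.5% of all genes and is not a result about this family. PXN, which encodes the adaptor paxillin, was at 258, 246 and 231 CPM in Apatinib replicates 1 to 3, against 222, 226 and 248 CPM in control replicates 1 to 3. The groups overlapped, and the log2 fold change was 0.08 (SE 0.11). TLN1, which encodes the integrin-activating talin, and PTK2, which encodes focal adhesion kinase, had log2 fold changes of 0.22 (SE 0.13) and 0.07 (SE 0.11). ILK, the gene of integrin-linked kinase, had the highest FPKM of the 4, at 100.03, 78.3 and 85.7 in Apatinib replicates 1 to 3, against 73.5, 78.4 and 82.0 in control replicates 1 to 3. In the count table it had no more than 18 counts in any replicate, or 0.137 counts per FPKM, where ITGB3 as the next lowest member had 32.7. Only 21.5% of its exon bases are shared with no other gene, the rest overlapping TAF10 and other genes on the opposite strand, but why its counts and FPKM differ was not tested. On log2(FPKM + 1) its difference was 0.17 by limma and did not pass the test.

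The calls depended on single replicates, for the members and for all genes. Without control replicate 1, and likewise without control replicate 2, HSPG2 was the sole member called, where 1.65% and 1.80% of all genes were. With these 2 controls summed it was also the sole one, beside 292 DEGs (1.75%) in place of 1866. Without control replicate 3 there were 10, the 5 called in all replicates together with ITGA3, ITGA5 and AGRN as higher and ITGA1 and ITGB8 as lower, where 15.5% of all genes were called. Without Apatinib replicate 1, HSPG2 and LAMB2 were called, and without Apatinib replicate 2, HSPG2 and ITGA2, the latter as lower, beside 4.73% and 8.91% of all genes. Without Apatinib replicate 3, 8 members and 12.1% of all genes were called. Control replicate 3 had the smallest distance of the controls to the Apatinib mean in 20 of 34 members, and in 8504 of all 16290 genes.

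The fold changes of the adhesion genes also followed the GC content of their transcripts. Across the 34 members, which share the same 6 libraries and are not independent replicates, Pearson's r between log2 fold change and GC content was 0.71 and Spearman's rho was 0.66. Across the 15819 tested genes with known GC content these were 0.40 and 0.45. Of the 17 members with the lower GC content (38.2% to 51.5%), 9 had a positive log2 fold change, with a median of 0.00. Of the 17 with the higher GC content (52.6% to 66.0%), 15 had one, with a median of 0.35. The 3 members of lowest GC content were ITGAV, ITGA1 and ITGB8, all with negative fold changes, and the highest was AGRN.

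After a correction for GC content in each library, HSPG2 remained the single member called (log2 fold change 0.59). The log2 fold change became -0.14 for ITGAV, 0.39 for LAMB2, 0.45 for ITGA11 and 0.35 for ITGB4, none of them called. Members that were not called moved as well, ITGA1 to -0.03, ITGB8 to -0.02, ITGB1 to -0.03, ITGA3 to 0.27, AGRN to 0.25, LAMA5 to 0.06 and ITGA6 from 0.00 to 0.26. LAMA3, of moderate GC content (46.5%), was at 0.50 after the correction, below the fold change limit by a small margin. The median of the 34 members was then 0.13, with 25 of them positive. The correction removes any true change that runs along GC content together with a technical one, and the part of GC content in these results was not tested further.

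**Figure D4:**
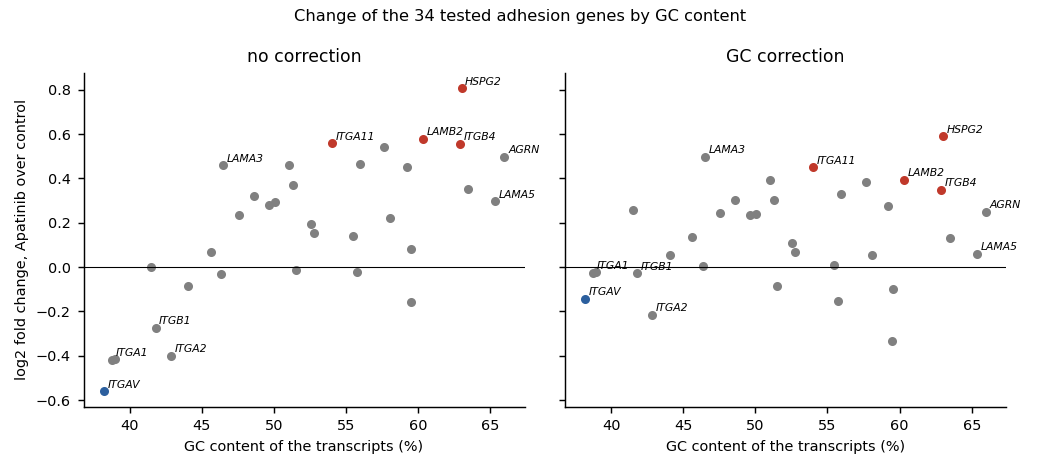
Log2 fold change (Apatinib over control) of the 34 tested adhesion genes against the GC content of their transcripts (%), without (left) and with (right) a correction for GC content in each library. Red and blue mark the genes called higher and lower without the correction. The fold change of ITGAV moves from -0.56 to -0.14 and that of HSPG2 from 0.81 to 0.59.

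Further genes of cell-matrix adhesion were followed in 5 lists, of which 115 genes were tested, 23 called higher and 3 called lower (22.6% called, against 11.5% of all genes, of which 5.97% were higher and 5.48% lower). The lists were chosen with earlier results of these data known. The shares called in them, here and below, are therefore a description and no evidence of an excess. With control replicates 1 and 2 summed, or without either of them, only 5 of the list genes were called, where 1.75%, 1.65% and 1.80% of all genes were. The median GC content of the 115 genes was 54.0%, against 49.9% for all genes. With the correction for GC content 13 of these 26 calls were kept, and of the 1866 DEGs over all genes 1026 were kept. In that fit 1360 of 15819 genes (8.60%) were called. The median log2 fold change of the 115 genes was 0.27. The genes called in each of the 6 fits that left out a replicate were RHOB, LIMS2, FLNC, TNXB and COL15A1.

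The adaptors and focal adhesion genes formed the longest list, with 11 called higher and 3 called lower of 56 tested (14 in all, where 11.5% of all genes were called, 5.97% higher and 5.48% lower) and a median log2 fold change of 0.14. With control replicates 1 and 2 summed 3 were called. RHOB, a small GTPase of the actin cytoskeleton, was at 38.7, 41.7 and 35.5 CPM in Apatinib replicates 1 to 3, against 15.2, 16.4 and 19.5 CPM in control replicates 1 to 3. Every treated replicate was far above the controls, and RHOB was 2.26-fold higher (log2 fold change 1.18, SE 0.14, edgeR FDR = 0.00238). LIMS2, a partner of integrin-linked kinase, was 3.30-fold higher (edgeR FDR = 0.00473) at a low level of 0.857 FPKM. The actin crosslinkers FLNC (1.69-fold, edgeR FDR = 0.00584) and FLNA (1.47-fold, edgeR FDR = 0.0250) were higher, FLNA being the most abundant gene of the list with 338 FPKM. TGFB1I1, a relative of paxillin, was 1.55-fold higher, the LIM domain protein FHL2 1.79-fold and the Src family kinase FYN 1.76-fold. With the GC correction FLNA (log2 fold change 0.35) and TGFB1I1 (0.42) were not called.

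RHOA, the next most abundant gene of that list (181 FPKM), had a log2 fold change of 0.07 and did not pass the test. The 3 lower genes, named after their values were seen, were the kinases ROCK1 and ROCK2, which act below RHOA on myosin, and the Src family kinase YES1. Their log2 fold changes were -0.64, -0.64 and -0.59. In control replicate 3 ROCK2 was at 93.3 CPM, against 142 and 154 CPM in control replicates 1 and 2 and 92.8 CPM in Apatinib replicate 3. With the GC correction these values became -0.16, -0.23 and -0.15, and none was called.

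Integrin ligands other than laminins and collagens had 3 higher and 0 lower of 19 tested, with a median log2 fold change of 0.37. The 15.8% called were near the 11.5% of all genes. TNXB, a tenascin, was at 25.3, 23.6 and 18.1 CPM in Apatinib replicates 1 to 3, against 8.02, 7.31 and 11.5 CPM in control replicates 1 to 3. It was 2.49-fold higher without overlap of the groups (edgeR FDR = 0.00507). MFGE8, a ligand of ITGAV receptors, was 1.56-fold higher (edgeR FDR = 0.0179), but with the GC correction its log2 fold change was 0.46 and it was not called. VWF, which also marks endothelial cells, was called higher with no more than 53 counts in any replicate, while CDH5, another endothelial marker, was called lower (log2 fold change -1.22) with no more than 56 counts. The summed level of the 5 endothelial markers was 2.27, 2.74 and 2.17 FPKM in Apatinib replicates 1 to 3, against 2.57, 2.25 and 2.22 FPKM in control replicates 1 to 3, most of it TEK, and its part in the result was not tested. FN1, which encodes fibronectin and was the most abundant ligand (335 FPKM), had a log2 fold change of 0.44 with an edgeR FDR of 0.0473, below the fold change limit. TGFBI, the next in level (134 FPKM), had one of -0.12.

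Of the non-integrin matrix receptors and integrin partners, 4 of 21 tested were higher (19.0%, against 5.97% of all genes) and 0 were lower (against 5.48%). All 21 had a positive log2 fold change, with a median of 0.40, where 8195 of 16290 genes had one, with a median of 0.00. The median GC content of this list was 57.6%, against 49.9% for all genes, and with control replicates 1 and 2 summed 0 were called. The called genes were CSPG4, a membrane proteoglycan (1.498-fold), GPC1, a glypican (1.57-fold), BCAM, a receptor for LAMA5 (1.42-fold), and SLC3A2, the CD98 heavy chain that binds beta subunits (2.05-fold). BCAM, at a log2 fold change of 0.504, was called in 2 of the 6 fits that left out a replicate and in 2 of 9 other alternatives. SLC3A2 was at 302, 656 and 225 CPM in Apatinib replicates 1 to 3, against 205, 186 and 187 CPM in control replicates 1 to 3. Apatinib replicate 2 stood far above the others in this gene, and without it the log2 fold change was 0.46 in place of 1.03 and the gene was not called. The call was also lost without Apatinib replicate 1, control replicate 1 or control replicate 2. The most abundant genes were RPSA, the laminin-binding ribosomal protein (705 FPKM), with a log2 fold change of 0.03, and CD44, the hyaluronan receptor (319.6 FPKM), with one of 0.46 below the limit. With the GC correction 0 of the 21 genes were called by edgeR. The log2 fold change of SLC3A2 was then 0.91, close to its value without the correction. Those of GPC1, CSPG4 and BCAM were 0.41, 0.37 and 0.28.

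The list of further basement membrane genes had 4 higher and 0 lower of 13 tested (30.8% called, against 11.5% of all genes), with a median log2 fold change of 0.40. With control replicates 1 and 2 summed, or without either of them, 1 was called. COL15A1, which encodes a basement membrane collagen with chondroitin sulfate chains, was at 458, 575 and 406 CPM in Apatinib replicates 1 to 3, against 269, 269.55 and 273 CPM in control replicates 1 to 3. Every Apatinib replicate was above every control, and the gene was 1.77-fold higher (edgeR FDR = 0.00738). COL18A1, the collagen that holds endostatin, was 1.52-fold higher (edgeR FDR = 0.0145), but with the GC correction its log2 fold change went from 0.61 to 0.36 and it was not called. NTN4, a netrin that binds laminin gamma chains, and COL4A6, a chain of type IV collagen, were higher with log2 fold changes of 0.59 and 0.58. COL4A6 was called in 0 of the 6 fits that left out a replicate, and at 0.47 with the GC correction it was not called. SPARC and PXDN, the most abundant genes of the list with 297 and 68.7 FPKM, had log2 fold changes of 0.09 and 0.28 and did not pass the test.

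Outside the listed members, 6 further integrin and laminin genes were tested and ITGAX alone was called. On 6 genes these 16.7% are near the 11.5% of all genes. ITGAX, an alpha subunit best known from myeloid cells, was at 11.0, 11.0 and 11.2 CPM in Apatinib replicates 1 to 3, against 3.64, 3.79 and 6.73 CPM in control replicates 1 to 3. It was 2.32-fold higher (edgeR FDR = 0.0112) at a level of 1.70 FPKM, but it was not called with control replicates 1 and 2 summed or without either of them. ITGAE and ITGA2B, the most abundant genes of this list with 18.4 and 2.06 FPKM, had log2 fold changes of 0.22 and 0.22 and did not pass the test.

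**Figure D5:**
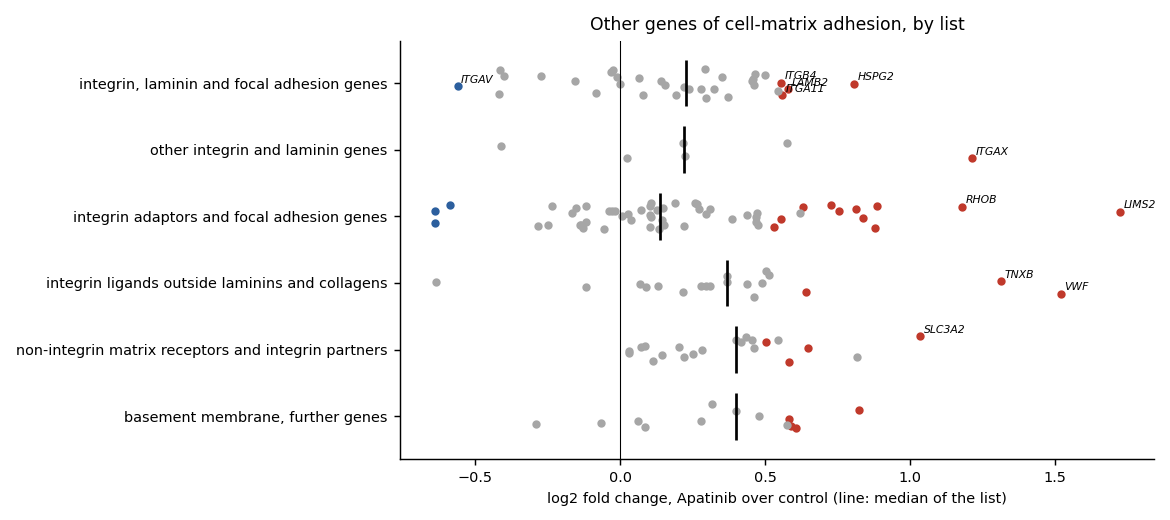
Log2 fold change (Apatinib over control, edgeR) of the tested genes of the 34 adhesion members and of 5 further lists, with 1 point per gene, red for genes called higher, blue for genes called lower and grey for the others. The black line is the median of each list, from 0.14 for the adaptors to 0.40 for the receptors and the further basement membrane genes.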

How the data were processed

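RNA sequencing data of SW872 cells treated with Apatinib and of control cells were used, with 3 samples per group that the study describes as biological replicates. The authors deposited a table of counts, whole numbers that were not normalized, with 57773 genes and 6 samples. FPKM values of each sample were deposited too. The submitters' processing notes list CASAVA, STAR 2.7.1a and the genome build hg19, and the counting program, its annotation and its use of strand are not given in the sources used here. The FPKM values of Apatinib replicate 1 come with 1 additional column under a control label, which was not used.

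Rows whose gene name equals a listed symbol were taken. The members and lists were chosen with earlier results of these data known. The groups were compared by the quasi-likelihood F test of edgeR 4.0.16 (R 4.3.3) after filterByExpr and TMM scaling, with Benjamini-Hochberg adjustment over 16290 genes. The call limits are those of the study's methods, and DESeq2, the program named there, was run as an alternative in version 1.42.0, as was limma 3.58.1 on FPKM after adding 1 or 0.1 and taking log2, where the mean exceeded 0.5 FPKM. Further alternatives were size factors by RLE, every gene with any count, only genes that reach 10 counts in each sample, a block for replicate number, control replicates 1 and 2 summed, an FDR limit alone and leaving out each replicate. A GC correction (per-sample loess, span 0.3, used as an offset) was added after seeing the data. GC content and exon overlaps came from GENCODE 29 transcripts. The fits were tested on simulated data.

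Values in every sample are given for the called members and the 2 members of highest mean FPKM in each family, and for lists the called genes (at most 6 by smallest p) and the 2 of highest FPKM were named. ITGA1, ITGA2 and other members beyond this rule are given by fold change or level. PECAM1 and TNS2 were not analysed here. For shares of summed FPKM above 5% all permutations of the samples were listed, so 0.1 is the lowest two-sided p.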

Additional observations from a re-analysis of the deposited data

How the results depend on the processing

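The direction of the 5 called members was the same under every alternative run, and their calls were kept with DESeq2, RLE size factors, either filter on low counts and the replicate block. HSPG2 was called under all of them. For all 34 members, 266 of 297 fold changes under alternatives that kept all replicates stayed on their side of the limits and of 0.

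Replicate numbers did not pair the samples: deviations from the group mean of samples with the same number had correlations of -0.26, 0.08 and -0.22, and no sample correlated best with its own number. The replicate block gave 2215 DEGs (13.6% of all genes), of which 5 were members, and a log2 fold change of -0.0012 for ITGA6.

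Over all genes, DEGs fell from 1866 (11.5%) to 292 (1.75%) with control replicates 1 and 2 summed. They fell to 796 (5.03%) and 810 (5.12%) with limma on log2(FPKM + 1) and log2(FPKM + 0.1). With the GC correction 1360 (8.60%) were called, and 2102 (12.9%) passed the FDR alone. Called members numbered 1 with the sum, 1 and 3 with limma, 1 with the GC correction and 9 by FDR alone, those called higher 1 with the sum, 1 with limma on log2(FPKM + 1), 1 with the GC correction and 8 by FDR alone, and those called lower 0 with the sum, both limma fits and the GC correction. With no filter on low counts 2559 genes (7.85%) were called, of which 6 were members, AGRN being added, as with DESeq2. ITGB3 was added by limma on log2(FPKM + 0.1). Summing leaves 2 controls, as does leaving out control replicate 3, where 2594 genes and 10 members were called. The cause of these changes was not tested.

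For the lists, with the sum 0 other integrins and laminins were called, 3 adaptors, 1 ligand, 0 receptors and 1 further basement membrane gene. Limma on log2(FPKM + 1) called 7 adaptors, 1 ligand, 2 receptors and 2 basement membrane genes, and on log2(FPKM + 0.1) 8, 2, 2 and 2. The GC correction called 8 adaptors, 0 receptors and 2 basement membrane genes, and the FDR alone 5 ligands. Of all genes, 1.75% were called with the sum, 5.03% and 5.12% with limma, 8.60% with the GC correction and 12.9% by FDR alone.

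Leaving out 1 replicate at a time gave 275 to 2594 DEGs (1.65% to 15.5% of all genes), lowest without control replicate 1 and highest without control replicate 3. Called members ranged from 1 to 10, those higher from 1 to 7 and those lower from 0 to 3. The ranges were 0 to 1 for other integrins and laminins, 3 to 16 for adaptors, 1 to 4 for ligands, 0 to 6 for receptors and 1 to 4 for basement membrane genes. The differences in share kept their sign, but their size moved. With CPM in place of FPKM they went from 1.86 to 0.176 points for LAMA4, from -2.30 to -0.599 for LAMA5, from -2.001 to -3.26 for ITGA1 and from -1.61 to -0.928 for ITGA6. Leaving out 1 replicate, they ranged from 1.04 to 2.72 for ITGA11, 1.13 to 2.57 for LAMA4, -3.18 to -1.37 for LAMA5 and -2.37 to -0.922 for ITGA6.

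Fold changes near 0 changed sign, none of them called: ITGA4 (0.0540 with the GC correction), ITGA6 (-0.0035 with RLE, -0.0048 with at least 10 counts, -0.000106 and -0.000207 with limma, but 0.257 with the GC correction), LAMA2 (0.0099 with the sum and 0.0034 with the GC correction), NID1 (0.0022 with both limma fits), PXN (-0.0989 with the GC correction) and ILK (0.167 and 0.169 with limma). Without Apatinib replicate 2, LAMA1 went from 0.29 to -0.33 and ITGA9 from 0.15 to -0.18, which were not as near 0. Leaving out 1 replicate at a time, 16 of 204 values changed sign. The ranges of these genes were -0.238 to 0.0262 for ITGA4, -0.0536 to 0.0796 for ITGA6, -0.182 to 0.347 for ITGA9, -0.329 to 0.538 for LAMA1, -0.521 to 0.227 for LAMA2, -0.371 to 0.00122 for LAMB3, -0.0419 to 0.0529 for NID1 and -0.273 to 0.272 for ILK.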
